A study of Mus musculus with 12 samples.

Results

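Insulin-like growth factor (IGF) signalling was described through 5 genes taken by name, the ligand gene Igf1, the receptor genes Igf1r and Igf2r, and the adaptor genes Irs1 and Irs2. Of these 5 genes 4 were measured, in a table of 13016 genes over 12 libraries, and the expression of Irs1 was not analysed here. The 5 genes were chosen with results known, selected on their levels in these same 12 libraries, so all values of the 5 genes are a description without a test. Of the 4 measured genes 3 passed the filter on low values, 1 RPKM (reads scaled to transcript length and library size) or more in 4 or more of the 12 libraries, which 10690 genes passed. Igf1 passed it through the mutant libraries alone, so some difference from control was built into its passing, and Irs2 did not pass.

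The cells were early thymic progenitors (ETPs), the first cells of the T lineage in the thymus, from mice of the C57BL/6 strain. Each library was made from 100 sorted cells, with 4 libraries per genotype. The dKO_Flt3ITD cells carried Ezh2 fl/fl and Runx1 fl/fl alleles, the Rag1Cre recombinase and Flt3 ITD/+, an internal tandem duplication in 1 allele of this cytokine receptor gene. The dKO cells carried the same floxed alleles and Rag1Cre with no Flt3 mutation given. The control cells carried Ezh2 fl/fl and Runx1 fl/fl without Rag1Cre, so all 3 groups shared the floxed alleles. Rag1Cre acts from early lymphoid progenitors onward and leaves other lineages largely unrecombined. The labels give neither the age of the mice nor the sorting markers. Nor do they say whether replicates came from separate animals, and p-values therefore cover the spread among libraries only, which may be technical.

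IGF-1 is a secreted growth factor, made in the liver under growth hormone and locally by macrophages and stromal cells. It binds the tyrosine kinase receptor encoded by Igf1r, which passes the signal through IRS adaptors to PI3 kinase, AKT and mTOR. The receptor encoded by Igf2r, also known as the cation-independent mannose 6-phosphate receptor, has no kinase and carries IGF-II and lysosomal enzymes to lysosomes. In the mouse, giving IGF-1 is known to enlarge the thymus.

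The whole reads recovered from the RPKM values totalled 13623436 to 33985972 per library. Control 1 stood somewhat apart, with a mean correlation of 0.786 to the rest. Ezh2 ranged over 12.03 to 24.6 RPKM in dKO_Flt3ITD, 16.9 to 29.8 in dKO and 32.8 to 45.7 in control. Runx1 ranged over 32.6 to 58.8 RPKM in libraries labelled dKO_Flt3ITD, 35.9 to 58.2 in those labelled dKO and 16.3 to 25.3 in control, so it was higher and not lower where it was labelled deleted. Gene-level values include exons that the deletion leaves in place and so cannot check it, and the directions given here rest on the labels. All 10 of 10 ETP marker genes were measured, and their summed level was 551 to 721 RPKM in dKO_Flt3ITD, 578 to 693 in dKO and 757 to 1114 in control.

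Igf1, the ligand gene (chromosome 10, 87858265 to 87937042, plus strand, GRCm38), was barely detected in control ETPs and was present in every mutant library. It had 26.2, 35.1, 1.20 and 5.29 RPKM in dKO_Flt3ITD libraries 1 to 4, 46.5, 11.1, 33.8 and 63.1 RPKM in dKO libraries 1 to 4, and 0.00472, 0.0513, 0.236 and 0.0354 RPKM in control libraries 1 to 4. Every mutant library lay above every control library, and the highest control value was below the lowest mutant value, that of dKO_Flt3ITD 3. The reads behind these values were 5569, 5119, 232 and 1003 in dKO_Flt3ITD, 6072, 1321, 7456 and 9189 in dKO, and 1, 8, 46 and 8 in control.

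The group levels of Igf1 were 16.9 ± 16.3 RPKM in dKO_Flt3ITD, 38.6 ± 21.9 in dKO and 0.0818 ± 0.104 in control (SD, n = 4 each). The mean in dKO_Flt3ITD was 207 times, and that in dKO 472 times, the control mean, which rests on 63 reads, 46 of them in control 3. Without control 3 the control mean was 0.0305 RPKM, and the ratios became 556 for dKO_Flt3ITD and 1266 for dKO. On the log2(RPKM + 1) scale used for fitting, which understates the change of genes near 0, the difference was 3.32 for dKO_Flt3ITD against control and 4.96 for dKO against control, each with a standard error of 0.76. The 2 mutant groups overlapped, with a difference of -1.64 for dKO_Flt3ITD against dKO (standard error 0.76). Within dKO_Flt3ITD, libraries 1 and 2 were high and libraries 3 and 4 low. The order of the group means was therefore dKO, dKO_Flt3ITD, control, in which the libraries of the first pair overlapped.

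The size of the Igf1 difference moved with the scale. Over 21 other ways of fitting, dKO_Flt3ITD against control ranged over 1.73 to 7.54 log2 units, and dKO against control over 2.92 to 9.52. In bulk samples such as these, more cells expressing a gene and more RNA per cell cannot be told apart.

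**Figure D1:**
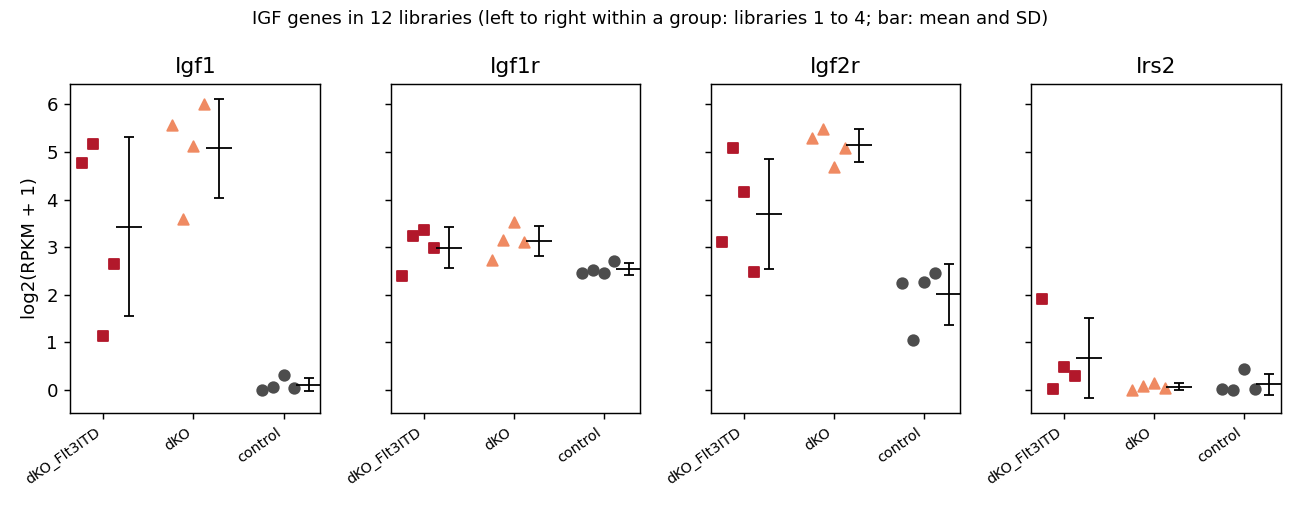
Level of the 4 measured IGF genes in each library, as log2(RPKM + 1), with dKO_Flt3ITD (squares), dKO (triangles) and control (circles) from left to right and the group mean and SD (n = 4) beside the points. Igf1 and Igf2r lay above all 4 controls in every mutant library, Igf1r stayed within a narrow range, and Irs2 was above 1 RPKM in a single library.

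Igf1r, the gene of the signalling receptor (chromosome 7, 67952827 to 68233668, plus strand), was expressed in all 12 libraries at similar levels. It had 4.27, 8.37, 9.24 and 6.85 RPKM in dKO_Flt3ITD libraries 1 to 4, 5.68, 7.83, 10.6 and 7.59 in dKO libraries 1 to 4, and 4.49, 4.75, 4.50 and 5.57 in control libraries 1 to 4. The 4 dKO libraries lay just above the 4 controls, while dKO_Flt3ITD 1 was the lowest of all 12. Group levels were 7.18 ± 2.18, 7.92 ± 2.02 and 4.83 ± 0.508 RPKM in dKO_Flt3ITD, dKO and control (SD, n = 4 each). On the log2(RPKM + 1) scale the differences were 0.45 for dKO_Flt3ITD and 0.59 for dKO against control, and -0.14 between dKO_Flt3ITD and dKO, each with a standard error of 0.43.

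Igf2r, the gene of the mannose 6-phosphate and IGF-II receptor (chromosome 17, 12682406 to 12769664, minus strand), was low in control and high in dKO. It had 7.65, 33.0, 16.7 and 4.54 RPKM in dKO_Flt3ITD libraries 1 to 4, 38.0, 43.7, 24.9 and 32.9 in dKO libraries 1 to 4, and 3.75, 1.07, 3.82 and 4.53 in control libraries 1 to 4. All 4 dKO libraries were far above control, whereas dKO_Flt3ITD spread from a level within 0.01 RPKM of control 4 up to the dKO levels. Mean levels were 15.5 ± 12.8 RPKM in dKO_Flt3ITD, 34.9 ± 8.01 in dKO and 3.29 ± 1.52 in control (SD, n = 4 each), the dKO mean being 10.6 times the control mean.

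For Igf2r the difference on the log2(RPKM + 1) scale was 1.70 for dKO_Flt3ITD and 3.13 for dKO against control, and -1.43 between dKO_Flt3ITD and dKO, each with a standard error of 0.54. Over 21 other ways of fitting they ranged over 1.12 to 2.11, 2.26 to 3.51 and -1.89 to -1.02 log2 units. Igf1 and Igf2r were not high in the same dKO_Flt3ITD libraries: libraries 1 and 2 led for Igf1, and libraries 2 and 3 for Igf2r. After group means were taken off, their correlation over the 12 libraries was 0.12, a description over libraries that share groups and depth.

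Igf2r is imprinted in the mouse, where most tissues express the maternal copy. On the paternal copy, Airn, a long non-coding RNA, starts inside Igf2r in the opposite direction and silences it. Airn (chromosome 17, 12741311 to 12860136, plus strand) was added after its values were seen. It had 0.117, 8.07, 2.68 and 0.0377 RPKM in dKO_Flt3ITD libraries 1 to 4, 7.80, 6.06, 3.58 and 6.23 in dKO libraries 1 to 4, and 0.0169, 0.0229, 0.0183 and 0 in control libraries 1 to 4. The control values stood for 1, 1, 1 and 0 reads, and a count of 0 in control 4 allows up to 0.0475 RPKM (3 reads, counting error only). Airn was thus high in the same mutant libraries as Igf2r, and dKO_Flt3ITD 1 and 4, the lowest of the mutants for Igf2r, had 7 and 2 Airn reads.

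Across the 12 libraries the correlation of Igf2r and Airn was 0.95 on the log2(RPKM + 1) scale, and 0.85 after group means were taken off. These points share groups, depth and a stretch of DNA. The span of Airn contains 3 of the 49 exonic blocks of Igf2r, or 519 of 9308 exonic bases (5.58%), and no exon of one overlaps an exon of the other. The sources used here do not say whether counting used strand, so reads from Igf2r and from its antisense partner within that stretch cannot be told apart. Airn differed by 1.30 for dKO_Flt3ITD and 2.73 for dKO against control, and by -1.43 between dKO_Flt3ITD and dKO, on the log2(RPKM + 1) scale (standard error 0.61 each). Airn reached 1 RPKM in 2 dKO_Flt3ITD, 4 dKO and 0 control libraries, so it passed the filter through the mutant libraries alone, and its difference is given without a test.

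**Figure D2:**
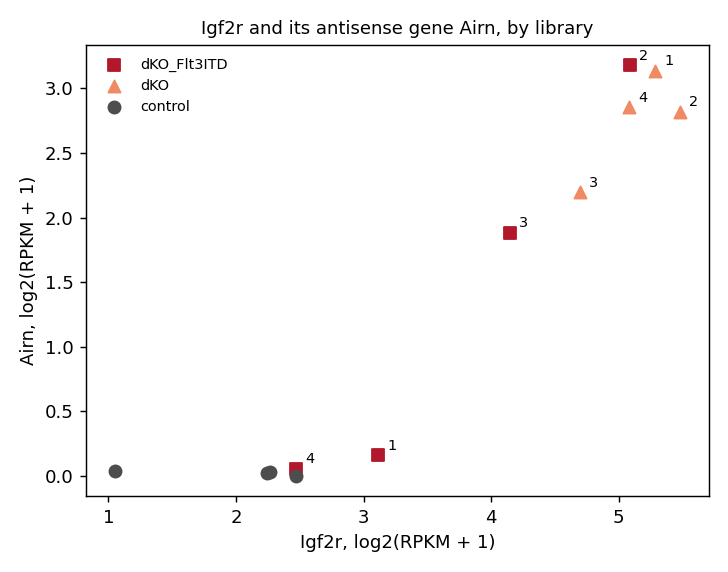
Airn against Igf2r in each library, both as log2(RPKM + 1), with numbers giving the mutant library. The 4 controls and dKO_Flt3ITD 1 and 4 lie at the bottom left, and the 4 dKO libraries with dKO_Flt3ITD 2 and 3 at the top right.

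The 250 bases before the annotated start of each of these overlapping genes are shown 5′ to 3′ from the RefSeq table on GRCm38.p6, since both starts lie within the Igf2r region where the libraries moved together. For Igf2r this is chr17:12769707-12769956 on the minus strand, and for Airn chr17:12741061-12741310 on the plus strand, within an intron of Igf2r and touching none of its exons. Capitals mark the E-box CACGTG.
Igf2r: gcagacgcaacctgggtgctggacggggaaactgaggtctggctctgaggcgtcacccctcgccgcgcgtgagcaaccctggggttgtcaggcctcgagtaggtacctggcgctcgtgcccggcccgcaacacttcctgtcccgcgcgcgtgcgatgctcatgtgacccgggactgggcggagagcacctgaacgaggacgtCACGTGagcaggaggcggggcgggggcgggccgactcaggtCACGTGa
Airn: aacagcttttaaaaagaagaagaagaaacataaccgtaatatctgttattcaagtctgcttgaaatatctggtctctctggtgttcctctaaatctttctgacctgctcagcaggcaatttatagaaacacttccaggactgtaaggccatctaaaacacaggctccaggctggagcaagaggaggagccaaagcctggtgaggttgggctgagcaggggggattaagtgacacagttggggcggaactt
The Igf2r stretch held 27 CpG dinucleotides and the Airn stretch 2, against a median of 6 over 32851 promoters of the same length. The Igf2r stretch held CACGTG at 48 and 7 bases before the start. This motif was searched on both strands and occurs in 6.02% of all promoters, and at least 2 times in 0.429%. A motif match is a description of the letters and not a binding site.

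The other members' windows were searched in the same way. The window of Irs2 held CACGTG 1 time, as did that of Irs1, and those of Igf1 and Igf1r held none. TGTGGT and TGCGGT, core sequences of RUNX sites, TTCNNNGAA, the STAT motif, and GTAAACA, the forkhead motif, were in none of the 5 windows nor in that of Airn. They occur in 14.05%, 5.10%, 7.02% and 3.17% of all promoters. CpG counts were 5 for Igf1, 42 for Igf1r, 28 for Irs1 and 34 for Irs2. Igf1 has several annotated starts, all 250 bases of its window lie in exons of other annotated transcripts, and gene-level values do not show which start was used.

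Irs2, the adaptor gene downstream of the insulin and IGF-1 receptors (chromosome 8, 10984681 to 11008458, minus strand), was near the limit of detection in most libraries. It had 2.75, 0.0134, 0.394 and 0.226 RPKM in dKO_Flt3ITD libraries 1 to 4, 0, 0.0655, 0.115 and 0.0268 in dKO libraries 1 to 4, and 0.00919, 0, 0.360 and 0.00863 in control libraries 1 to 4. A single library, dKO_Flt3ITD 1 with 301 reads, was above 1 RPKM, and the 3 groups overlapped. The 0 in dKO 1 allows up to 0.0448 RPKM and that in control 2 up to 0.0375 RPKM. Group levels were 0.847 ± 1.28 RPKM in dKO_Flt3ITD, 0.0518 ± 0.0499 in dKO and 0.0944 ± 0.177 in control (SD, n = 4 each). Irs2 did not pass the filter, so it was not fitted and no difference was tested.

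Set against all genes, limma, the linear model fitted across the table, called 1.50% of 10690 genes in dKO_Flt3ITD against control and 1.02% in dKO against control. Of the 3 members tested it called 1 in the first comparison, Igf1, and 2 in the second, Igf1 and Igf2r, and since the members were chosen knowing these values nothing is read from the counts. The Igf1 call in dKO_Flt3ITD against control held in 9 of 21 other ways of fitting, and in 2 of 8 fits that left out 1 library. In dKO against control the Igf1 call held in 20 of 21 and the Igf2r call in 19 of 21. All these calls were lost with voom on the recovered reads. How often a call of a member held is likewise a description and no support, since the fits use the values that chose the members. In dKO_Flt3ITD against dKO limma called 0% of genes, as did voom on the recovered reads, with 824 genes at an unadjusted p under 0.05, and none of the 3 members. Groups did not overlap for 2 of the 3 members in dKO_Flt3ITD against control, where 7.67% of all genes did not overlap, and for all 3 in dKO against control, where the share of all genes was 6.30%. For dKO_Flt3ITD against dKO all 3 members overlapped, and 4.28% of all genes did not. RPKM is per length, so levels can also be ranked between genes. By mean RPKM the order in dKO_Flt3ITD was Igf1, Igf2r, Igf1r, Irs2, with all neighbours overlapping but Igf1r and Irs2. The order in dKO was the same, with Igf1 and Igf2r alone overlapping. In control it was Igf1r, Igf2r, Irs2, Igf1, with overlap between Igf1r and Igf2r and between Irs2 and Igf1.

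Igf1 is also a gene of macrophages, so marker genes of other cells were read beside it. Of 16 macrophage markers 12 were measured, and their summed level was 54.8 to 158 RPKM in dKO_Flt3ITD, 56.7 to 156 in dKO and 22.3 to 73.2 in control. Vcam1 was listed at 0 in all 4 dKO_Flt3ITD libraries, and no other marker of the list was at 0 throughout a group. Csf1r, the receptor of macrophage colony-stimulating factor, ranged over 10.2 to 31.1 RPKM in dKO_Flt3ITD, 18.5 to 27.9 in dKO and 4.54 to 40.2 in control. Mrc1, the mannose receptor of resident macrophages, ranged over 0.00775 to 2.89 RPKM, 2.86 to 11.1 RPKM and 0 to 0.0283 RPKM in the same order of groups. Emr1, the gene of the F4/80 antigen, ranged over 2.48 to 43.4 RPKM in dKO_Flt3ITD, 0.0331 to 7.26 in dKO and 0 to 0.0371 in control. Spic, a macrophage transcription factor gene, ranged over 12.9 to 66.9, 2.23 to 31.2 and 0 to 11.1 RPKM in the same order. Other markers went the other way in dKO_Flt3ITD. C1qb averaged 4.85, 18.8 and 13.4 RPKM in that order, and Cd163 2.86, 7.69 and 5.94 RPKM. Axl and Timd4 averaged less in both mutant groups than in control. Of 9 macrophage markers tested, 7 had a positive and 2 a negative log2 difference in dKO_Flt3ITD against control. In dKO against control all 9 were positive.

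The highest Igf1 level of dKO_Flt3ITD, 35.1 RPKM in library 2, stood beside the lowest macrophage marker sum of that group, 54.8 RPKM, which lies within the control range. The lowest Igf1 level of dKO, in library 2, also stood beside the lowest sum of its group. Markers of mast cells and basophils summed to 197 to 570 RPKM in dKO_Flt3ITD, 121 to 325 in dKO and 17.4 to 127 in control. Those of thymic epithelium and mesenchyme summed to 8.60 to 45.4, 18.8 to 56.4 and 18.4 to 42.7 RPKM in the same order. Markers of later thymocytes summed to 6.11 to 59.9 RPKM in dKO_Flt3ITD, 61.4 to 155 in dKO and 26.1 to 43.6 in control. The dKO sums lay wholly above control, and the highest gene in them was Rag2, which averaged 27.8, 84.2 and 12.4 RPKM. Ptcra averaged 7.75, 5.87 and 14.5 RPKM and Cd3g 0, 0.0131 and 2.47 RPKM, lower in dKO than in control. Of the 4 later thymocyte genes tested, 3 had a positive and 1 a negative log2 difference in dKO against control. Granulocyte and monocyte markers summed to 98.4 to 1429, 129 to 313 and 114 to 407 RPKM in the same order, and among them Ctsg, a neutrophil protease gene, averaged 115, 15.9 and 7.0004 RPKM. Mpo of the same list averaged 199.6, 60.2 and 146 RPKM, and Lyz2 143, 140 and 130 RPKM. Of the 5 genes of this list tested, 3 had a positive and 2 a negative log2 difference in each mutant group against control. Endothelial markers summed to 19.6 to 55.4, 22.7 to 39.98 and 12.7 to 33.4 RPKM, and among them Emcn averaged 11.7, 7.69 and 0.00686 RPKM. Pecam1 of the same list went the other way, with averages of 17.5, 19.03 and 22.7 RPKM in that order. Among the 2 endothelial genes tested, 1 had a positive and 1 a negative log2 difference in each mutant group against control. The part of these cell types in the Igf1 difference was not tested.

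**Figure D3:**
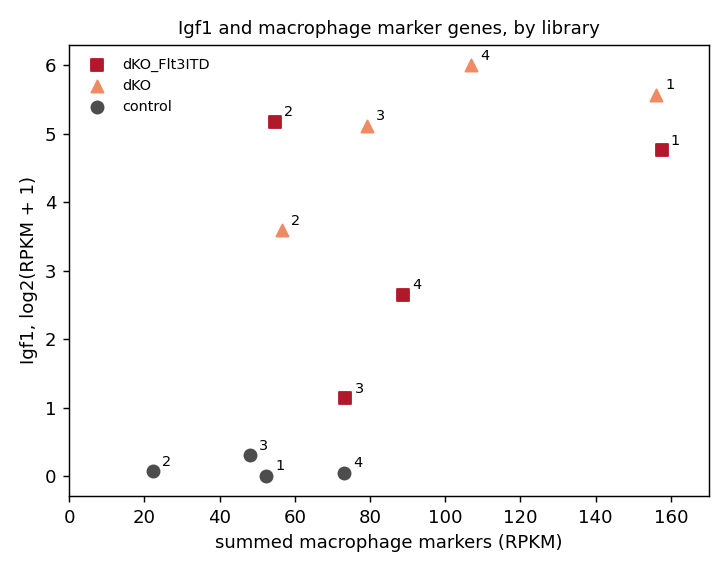
Igf1 as log2(RPKM + 1) against the summed RPKM of 12 measured macrophage marker genes, by library and with library numbers. Controls span 22.3 to 73.2 RPKM of markers with Igf1 near 0, and dKO_Flt3ITD 2 and dKO 2 fall in the same marker range with Igf1 at 35.1 and 11.1 RPKM.

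The genes whose pattern was most like that of Igf1 were found by Pearson correlation of log2(RPKM + 1) over the 12 libraries. They were Tceal8 at 0.93, Mgst1 at 0.93, Anp32e at 0.92, Scarf1 at 0.92 and Sh3gl3 at 0.91. Mgst1, a microsomal glutathione transferase gene, averaged 249.98 ± 194 RPKM in dKO_Flt3ITD, 281 ± 116 in dKO and 23.2 ± 18.3 in control (SD, n = 4 each). Scarf1, a scavenger receptor gene, averaged 5.95 ± 8.36, 8.69 ± 7.79 and 0.109 ± 0.0857 RPKM in the same order. Ranked among the genes tested, with predicted genes and pseudogenes skipped, Igf2r came 71st with 0.80, Airn 126th with 0.75 and Igf1r 1087th with 0.46. By Spearman correlation Airn came 6th with 0.91, Igf2r 68th with 0.81 and Igf1r 1087th with 0.47, so the rank of Airn depended on the measure. Spearman correlation in place of Pearson kept 2 of the 5 names. With group means taken off, the list was led by Col4a1, a basement membrane collagen gene, at 0.96, then Tceal8 at 0.92, Stard5 at 0.92, Mrpl52 at 0.91 and Smim6 at 0.89. These libraries share their groups, so likeness describes the pattern and no more.

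Beyond the members, 120 genes of the pathway were listed, of which 96 were measured and 92 tested. In dKO_Flt3ITD against control 3 rose and none fell (3.26%), against 1.50% of all genes, with a median log2 difference of -0.10 beside 0.00 for all genes. In dKO against control 2 rose and none fell (2.17%), against 1.02% of all genes, with a median of -0.01 beside 0.01 for all genes. No listed gene was called in dKO_Flt3ITD against dKO. The genes that rose were S1pr1, Socs1 and Socs2, and the other 89 tested genes were called in no comparison. No control library reached 1 RPKM for S1pr1 or Socs1, so these 2 genes passed the filter through the mutant libraries alone and some difference was built into their being tested. Socs2 reached it in 3 of 4 controls.

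**Figure D4:**
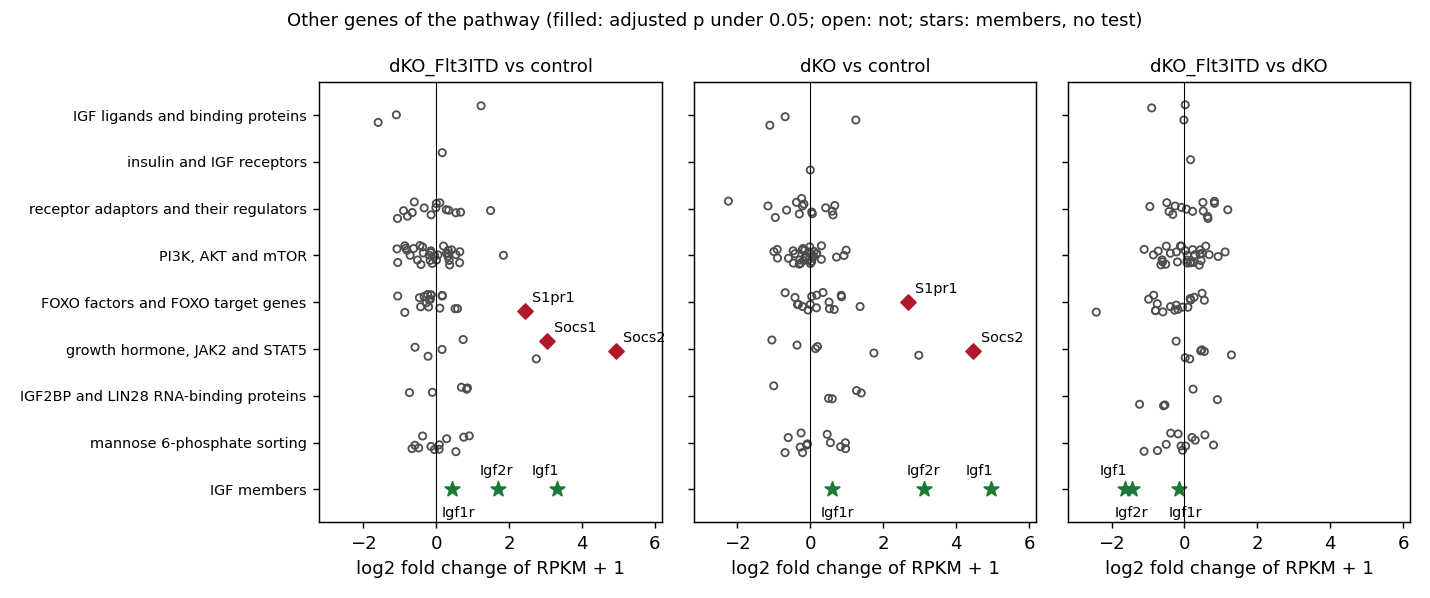
Log2 fold change on the RPKM + 1 scale of 92 other genes of the pathway, by role, in dKO_Flt3ITD against control, dKO against control and dKO_Flt3ITD against dKO, with the tested members as stars without a test. Filled diamonds are genes with a limma adjusted p under 0.05: S1pr1, Socs1 and Socs2 in the left panel and S1pr1 and Socs2 in the middle.

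Among ligands and binding proteins 3 of 17 listed genes were measured, and none passed in any comparison. Igfbp4, which holds IGFs in the extracellular space, averaged 32.6 ± 9.38 RPKM in dKO_Flt3ITD, 35.7 ± 24.3 in dKO and 72.7 ± 29.2 in control (SD, n = 4 each), with limma adjusted p = 0.256 for dKO_Flt3ITD and 0.368 for dKO against control. Igfbp7, a secreted protein that binds IGFs weakly, had 1.15, 5.84, 0.167 and 0.781 RPKM in dKO_Flt3ITD libraries 1 to 4, 1.33, 1.95, 1.46 and 0.885 in dKO libraries 1 to 4, and 0 reads in all 4 controls, which allows up to 0.0856 to 0.124 RPKM per library. Its limma adjusted p was 0.289 for dKO_Flt3ITD and 0.416 for dKO against control. Igfbp7 passed the filter through the mutant libraries alone, so some difference was built into its being tested. Insr, the insulin receptor gene, averaged 2.82 ± 1.94 RPKM in dKO_Flt3ITD, 2.40 ± 1.72 in dKO and 2.09 ± 1.00 in control.

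Of the receptor adaptors and their regulators 15 were tested and none passed. Sh2b2, an adaptor of the insulin receptor, averaged 2.68 ± 2.29 RPKM in dKO_Flt3ITD, 0.490 ± 0.955 in dKO and 5.50 ± 2.03 in control (SD, n = 4 each), with limma adjusted p = 0.0939 for dKO against control. Gab2, a docking adaptor, had 3.79 ± 1.85, 1.80 ± 1.40 and 0.746 ± 0.901 RPKM in the same order, with limma adjusted p = 0.226 for dKO_Flt3ITD against control. In both genes the difference missed the threshold, which does not show that the groups were alike.

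The 32 tested genes of the PI3K, AKT and mTOR group likewise gave no call. Pik3r1 and Pik3cd, a regulatory and a catalytic subunit of PI3 kinase, averaged 13.6 ± 7.83 and 17.5 ± 4.10 RPKM in dKO_Flt3ITD, 11.5 ± 7.04 and 12.6 ± 4.20 in dKO, and 13.0 ± 4.49 and 14.8 ± 8.08 in control. Akt1 averaged 22.8 ± 3.55, 13.9 ± 2.51 and 15.5 ± 3.69 RPKM in dKO_Flt3ITD, dKO and control, and Mtor 1.93 ± 0.684, 1.83 ± 1.30 and 1.82 ± 2.13 RPKM. Eif4ebp1, a translation repressor that mTOR inactivates, averaged 134 ± 58.1, 66.7 ± 21.2 and 40.2 ± 22.4 RPKM in that order, with limma adjusted p = 0.0977 for dKO_Flt3ITD against control. Gsk3b, a kinase that AKT inhibits, averaged 30.7 ± 13.3 RPKM in dKO_Flt3ITD, 63.0 ± 9.98 in dKO and 61.4 ± 8.68 in control, and all 4 dKO_Flt3ITD libraries lay below both other groups. Its limma adjusted p was 0.391 for dKO_Flt3ITD against dKO and 0.159 against control. Deptor, an mTOR inhibitor, averaged 13.6 ± 7.89, 20.3 ± 4.50 and 10.1 ± 3.69 RPKM.

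FOXO factors are shut out of the nucleus by AKT, and 18 of them and their known target genes were tested. S1pr1, a sphingosine 1-phosphate receptor that guides cells out of the thymus, rose in both mutant groups and was the 1 call. It had 7.12, 4.55, 7.35 and 1.46 RPKM in dKO_Flt3ITD libraries 1 to 4, 3.18, 3.75, 10.97 and 6.31 in dKO libraries 1 to 4, and 0, 0, 0.0529 and 0.0114 in control libraries 1 to 4. Its log2 difference was 2.44 (standard error 0.52, limma adjusted p = 0.0247) in dKO_Flt3ITD and 2.67 (0.52, limma adjusted p = 0.0162) in dKO against control. In each, 4 of 4 libraries lay above every control. S1pr1 passed the filter through the mutant libraries alone, so some difference was built into its being tested. Its p-values are given as a description. The dKO call was lost without dKO 3 or dKO 4, and the dKO_Flt3ITD call in 7 of 8 fits that left out 1 library, all but that without dKO_Flt3ITD 4, with limma adjusted p up to 0.0677 and 0.0785.

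The other FOXO targets named did not pass. Foxo1 itself averaged 2.13 ± 1.74 RPKM in dKO_Flt3ITD, 4.13 ± 1.38 in dKO and 2.64 ± 1.15 in control. Il7r, the interleukin 7 receptor gene, had 2.79, 25.8, 0.0883 and 1.84 RPKM in dKO_Flt3ITD libraries 1 to 4, 39.7, 25.4, 6.53 and 30.8 in dKO libraries 1 to 4, and 16.2, 21.0, 11.5 and 0.227 in control libraries 1 to 4, with all groups overlapping.

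Growth hormone raises Igf1 in the liver through JAK2 and STAT5, and 7 genes of this group were tested. Socs2, a STAT5 target and feedback inhibitor of growth hormone signalling, rose in both mutant groups. It had 108, 146, 29.1 and 158 RPKM in dKO_Flt3ITD libraries 1 to 4, 61.6, 60.4, 55.7 and 101 in dKO libraries 1 to 4, and 6.45, 2.08, 2.30 and 0.192 in control libraries 1 to 4. Its log2 difference was 4.92 (standard error 0.56, limma adjusted p = 0.000143) in dKO_Flt3ITD and 4.48 (0.56, limma adjusted p = 0.000427) in dKO against control. Within dKO_Flt3ITD both Socs2 and Igf1 were lowest in library 3, while library 4 was the highest for Socs2 and low for Igf1.

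Socs1, another feedback inhibitor, rose in dKO_Flt3ITD against control, at 9.61 ± 7.55 against 0.0214 ± 0.0284 RPKM (log2 difference 3.03, limma adjusted p = 0.00705), and averaged 2.48 ± 0.701 RPKM in dKO (1.75, limma adjusted p = 0.201). Socs1 too passed the filter through the mutant libraries alone, so its p-values are likewise a description. S1pr1, Socs1 and Socs2 lost every call with voom, at adjusted p of 0.0858 to 0.167. Stat5a averaged 15.7 ± 7.001, 14.9 ± 8.90 and 19.2 ± 11.2 RPKM and Stat5b 7.89 ± 3.98, 7.04 ± 1.85 and 6.48 ± 2.73 RPKM in dKO_Flt3ITD, dKO and control, with no call. Socs3 of the same group had log2 differences of -0.58 in dKO_Flt3ITD and -1.05 in dKO against control, and Cish 2.75 and 2.98, also uncalled. Of the 7 genes tested, 5 had a positive and 2 a negative log2 difference in each mutant group against control.

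The last groups held the RNA-binding proteins of Igf2 and let-7 biology, with 5 tested, and the mannose 6-phosphate sorting route in which the Igf2r product works, with 12 tested. None passed in any comparison. Hmga2, a chromatin protein gene and let-7 target, averaged 32.0 ± 15.0 RPKM in dKO_Flt3ITD, 43.3 ± 12.4 in dKO and 17.1 ± 8.81 in control, with limma adjusted p = 0.254 for dKO against control. M6pr, the gene of the smaller, cation-dependent mannose 6-phosphate receptor, averaged 78.7 ± 26.3, 109.7 ± 58.0 and 114 ± 51.0 RPKM in the same order. Snx2, a retromer-associated sorting gene, averaged 161 ± 29.8, 282 ± 103 and 159.8 ± 57.2 RPKM. Gnptab, whose enzyme makes the mannose 6-phosphate tag, averaged 13.8 ± 4.34, 11.7 ± 3.49 and 7.94 ± 3.43 RPKM. In dKO against control 1.02% of all genes were called, so the lack of a call among these 12 sorting genes says little about the route.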

How the data were processed

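RNA of 100 sorted ETPs per library was amplified by the SMARTer full-length method, per the labels' protocols. TopHat2 2.0.10, SAMtools 0.1.19, HTSeq 0.5.4p5 and the build mm10 are named in the submitters' processing notes. The authors deposited RPKM values for 13016 genes in 1 table, and neither the total they divided by nor their gene filter is stated. Whole reads were recovered from the steps between low values, for 100% of genes (tolerance 0.001). Limits at 0 reads cover counting error only.

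Groups came from the sample titles. Limma 3.58.1 (R 4.3.3) was fitted to log2(RPKM + 1) with an intensity trend over all 12 libraries together, leaving 9 residual degrees of freedom, for the 10690 genes reaching 1 RPKM in 4 or more libraries. Benjamini-Hochberg adjusted p-values under 0.05 were called. The members and lists were chosen with earlier results of these data known. Named genes were the members, those most like Igf1, called or lowest-p genes per list, a set of core pathway genes, and the targeted genes. Some genes that this rule names are not reported here. Airn and neighbouring genes within 500 kb were added after their values were seen. Alternatives were other pseudocounts, filters, scalings and weights, a replicate term, leaving out libraries, and voom on the recovered reads. Positions came from GENCODE mouse release M21 on GRCm38, and promoters, matched by symbol for all 5 members and Airn, from RefSeq on GRCm38.p6. Chi-square per degree of freedom between libraries of 1 group was 118 to 644, far beyond counting noise, so none was counted as a copy. The limma step was tested on simulated data. Python 3.11.15 with numpy 2.4.6 and pandas 2.3.3 made the tables, and matplotlib 3.10.9 the figures.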

Additional observations from a re-analysis of the deposited data

Results flagged for a closer look

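In 135 groups of 4 libraries, 11 had 1 library set far apart from the other 3 on the log2(RPKM + 1) scale by Dixon's criterion, which chance alone meets in about 1 in 20 groups. Among the members, Igf2r was lowest in control 2, at 1.07 RPKM, where the other controls had 3.75 to 4.53. Irs2 was highest in control 3, at 0.360 RPKM, where the other controls were below 0.01. Socs2 was highest in dKO 4, at 101 RPKM, and Sh2b2 also in dKO 4, at 1.92 RPKM. Foxo1 was lowest in dKO 4, at 2.07 RPKM, and lowest in control 2, at 0.940 RPKM. Akt1 was highest in control 1, at 21.0 RPKM, and Gnptab lowest in dKO_Flt3ITD 2, at 7.30 RPKM. The remaining flags were single low values in groups otherwise at 0, for Stc1 in dKO_Flt3ITD 3 (0.184 RPKM), Sh3gl3 in control 3 (0.0281 RPKM) and Col4a1 in control 3 (0.0121 RPKM). For none of these was the cause tested.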

How the results depend on the processing

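No call of a named gene reversed its direction under the alternatives run. The planned quasi-likelihood count test on the recovered reads was fitted but its counts are not reported, since the deposited values are RPKM and not counts; it called more genes than voom on the same reads in both comparisons with control. Of 109 genes called in dKO against control, the count became 64 with no filter, 210 with library weights, 5 with voom, 45 without control 1, dKO 1 and dKO_Flt3ITD 1 together, and 58 to 95 without single libraries. Listed pathway genes there, 2 at first, numbered 1 with a pseudocount of 5, 4 with library weights, 0 with voom, 1 without those 3 libraries and 1 to 3 without single libraries. For dKO_Flt3ITD against dKO, with 0 genes called, the count was 3 with a pseudocount of 5, 2 with the same sum of RPKM per library or library weights, 1 with no filter, at least 5 RPKM, median ratio scaling, the 8 libraries alone or without those 3 libraries, and 0 to 6 without single libraries, with none listed. For dKO_Flt3ITD against control the 160 calls became 91 with no filter, 27 with voom, 105 without those 3 libraries and 94 to 187 without single libraries, and the 3 listed genes became 1 at 5 RPKM or more, 0 with voom and 2 to 3 without single libraries. The cause was not tested. Scaling to the same sum shifted the median of all genes to -0.21 and -0.11 in dKO_Flt3ITD and dKO against control.

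Replicate numbers did not pair the libraries: 2 of 12 same-numbered pairs correlated over 0.1 (range -0.15 to 0.13), and 8 of 24 libraries-by-group checks were best with their own number. With a replicate block the calls were 116 for dKO_Flt3ITD against control, 0 for dKO_Flt3ITD against dKO and 85 for dKO against control. Depth limits Irs2, Airn and the control level of Igf1, which rest on few reads.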

Other observations

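Genes within 500 kb of the members were read after seeing the data, as a description. Near Igf1 3 neighbours were tested and near Igf1r 3, and none was called in any comparison. Near Igf2r 10 were tested, Airn among them. Slc22a3, a cation transporter gene of the same imprinted cluster, averaged 37.0 ± 18.2 RPKM in dKO_Flt3ITD, 42.5 ± 11.5 in dKO and 14.2 ± 6.19 in control (SD, n = 4 each) and was not called, with limma adjusted p = 0.179 for dKO_Flt3ITD and 0.114 for dKO against control. Mrpl18 and Tcp1, close by on the other side of Igf2r, averaged 288 ± 130.3 and 113 ± 14.7 RPKM in dKO_Flt3ITD, 289 ± 31.2 and 179 ± 61.4 in dKO, and 270.1 ± 88.4 and 199 ± 90.1 in control.

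Near Irs2 3 neighbours were tested. Col4a1 and Col4a2, adjacent collagen IV genes, were nearly absent from control while Irs2 itself stayed low. Col4a1 had 8.14, 9.9998, 1.78 and 4.84 RPKM in dKO_Flt3ITD libraries 1 to 4, 4.36, 1.47, 4.94 and 5.32 in dKO libraries 1 to 4, and 0, 0, 0.0121 and 0 in control libraries 1 to 4. Its correlation with Igf1 after group means were taken off was 0.96 over the 12 libraries, the highest of the genes ranked above. Both genes were near 0 in control, so this value rests mainly on the mutant libraries. Col4a2 averaged 6.59 ± 4.25 RPKM in dKO_Flt3ITD, 3.15 ± 0.746 in dKO and 0.00156 ± 0.00312 in control. No control library reached 1 RPKM for either gene, so both passed the filter through the mutant libraries alone, and no test is given.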
